A study of Neurospora crassa with 18 samples.

Results

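Of the 9730 genes with values in the mRNA-seq of *Neurospora crassa* mycelia, 4 genes of arginine breakdown and ornithine use were examined. They were chosen by locus tag and role, with earlier results of these data known. The 4 are *aga* (NCU02333, arginase), *ota* (NCU00194, ornithine aminotransferase), NCU03076 (pyrroline-5-carboxylate dehydrogenase) and *spe-1* (NCU01271, ornithine decarboxylase). Where a gene had several transcripts, their values were summed. A RefSeq table of the NC12 assembly gives the symbols *aga-1*, *ota* and *spe-1* for the first, second and last of them. It gives NCU03076 no symbol other than its locus tag, so that the role of this gene was taken from the selection and was not checked against an annotation. No annotation disagreed with a role, and all 4 genes were kept. All 4 were above 0 in all 18 libraries, with a lowest value of 14.9 RPKM (reads per kilobase of transcript, scaled to the size of the library), and none was lost to a filter.

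Arginase splits arginine into urea and ornithine. Ornithine aminotransferase turns ornithine into glutamate semialdehyde, which stands in equilibrium with pyrroline-5-carboxylate, and pyrroline-5-carboxylate dehydrogenase oxidizes this to glutamate, so that arginine can serve as a source of nitrogen and carbon. Ornithine decarboxylase takes the same ornithine to putrescine, the first of the polyamines. In *N. crassa*, most of the free arginine and ornithine lies in vacuoles, and CPC-1, the ortholog of yeast GCN4, activates genes of amino acid synthesis when amino acids run short.

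The libraries fall into 7 groups. The WT strain (FGSC4200) was sampled in 2% glucose medium without 3-AT (*n* = 3), in the same medium after 8 h with 3-AT at 5 mM (*n* = 3) and in 0.1% glucose medium (*n* = 2). The *cpc-1Δ* strain, a deletion mutant from the *Neurospora* knockout library, was sampled in 2% glucose medium without 3-AT (*n* = 2), with 3-AT (*n* = 3) and in 0.1% glucose medium (*n* = 2). The strain *cpc-1Δ*, *cpc-1*(WT) (here the transgene strain) was sampled only in the 2% medium with 3-AT (*n* = 3). It carries the deletion and, in place of *csr-1*, an epitope-tagged *cpc-1* with native codons that is driven by the *ccg-1* promoter and leader, together with a hygromycin resistance gene. 3-AT (3-aminotriazole) inhibits histidine synthesis and so starves the cells for that amino acid. The 0.1% glucose medium also held 0.17% arginine, the substrate of arginase, which is not listed for the 2% glucose medium, so that low glucose and added arginine cannot be told apart in any comparison of the media. All cultures grew from conidia at room temperature in constant light. The values of the transgene strain were tabulated apart from the others, so that the strain and the tabulation cannot be told apart.

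The files hold RPKM values and no read counts, and depth is known only in relation to the other libraries. Relative depth was judged from a low percentile of the values above 0, each multiplied by the annotated span of its gene. The groups with 2 libraries had relative depths of 1 to 3.48, and those with 3 had 4.46 to 7.75. *cpc-1* itself was between 418 and 1167 RPKM in the 8 WT libraries, between 2.03 and 5.11 RPKM in the 7 *cpc-1Δ* libraries and between 67.2 and 78.9 RPKM in the transgene strain. The sum of RPKM over all genes was lowest at 258726 and highest at 546387, and the values of most genes shifted together. For medians and ranks, the mean of a gene was taken over log2(RPKM + 1) in the libraries fitted together and turned back into RPKM. Over the genes with a mean above 10 RPKM, the median log2 difference between 0.1% and 2% glucose medium was 0.50 in the WT strain and 0.03 in *cpc-1Δ*. With 3-AT against none, it was −0.37 and −0.51. For *cpc-1Δ* against WT, it was 0.52 in 2% glucose medium, −0.01 in 0.1% glucose medium and 0.49 with 3-AT. For the transgene strain with 3-AT, it was 0.25 against *cpc-1Δ* and 0.73 against WT. Each log2 difference is therefore given first as deposited, on the scale of log2(RPKM + 1). Most of those of the 4 genes are then given after median-ratio scaling, called here scaled. In this scaling, each library was divided by the median of its ratios to the mean of all libraries. Where no scaled value is named, the value is as deposited. The test was limma's, with *P* values adjusted over all genes by the Benjamini-Hochberg method and a threshold of 0.05. In these bulk libraries, fewer cells of a type and less RNA per cell cannot be told apart.

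**Figure D1:**
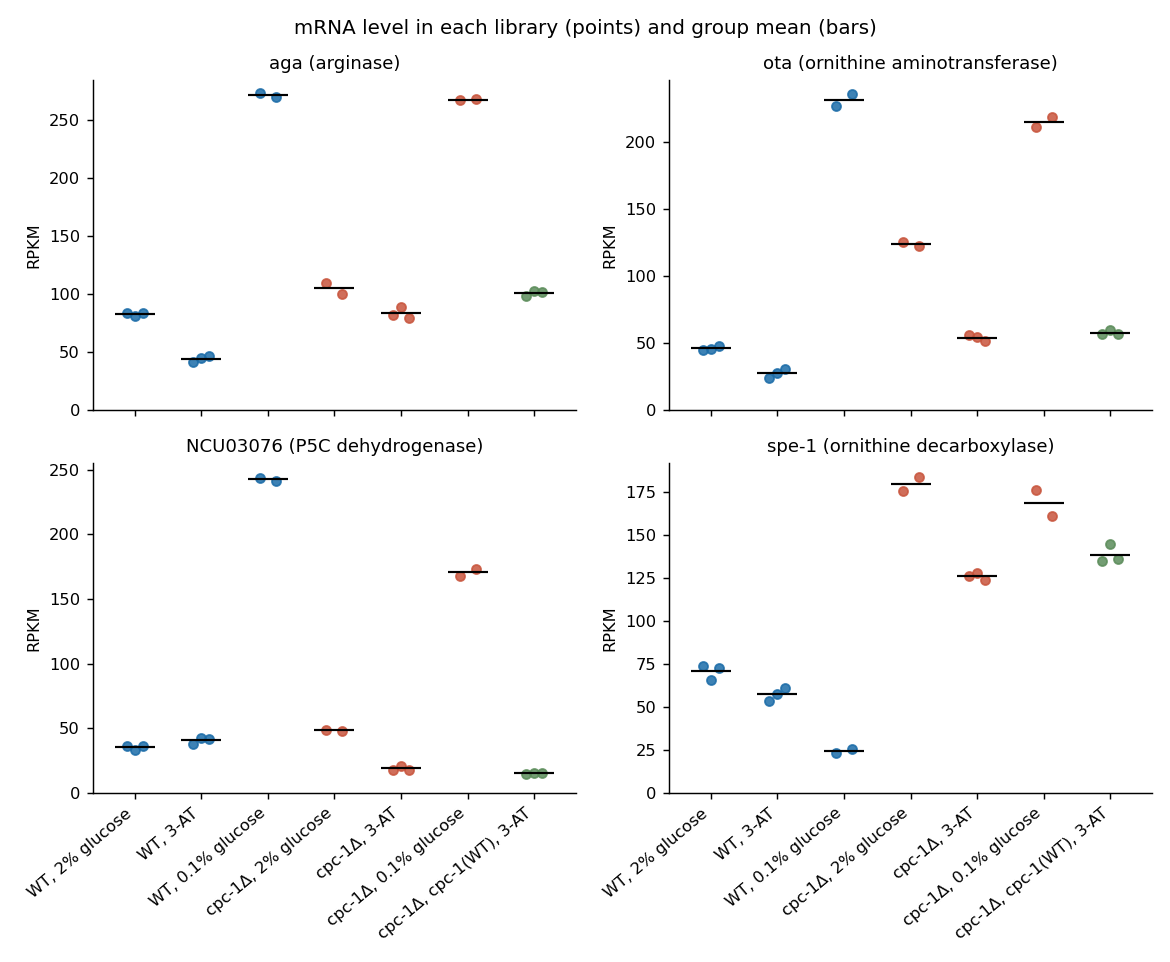
RPKM of the 4 genes (vertical axis, from 0) in each of the 18 libraries (points), by group (horizontal axis), with the group mean as a bar and WT in blue, *cpc-1Δ* in red and the transgene strain in green. *aga*, *ota* and NCU03076 were highest in the WT libraries in 0.1% glucose medium, at 269 to 273, 227 to 236 and 241 to 244 RPKM, where *spe-1* was lowest, at 23.0 and 25.7 RPKM.

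The first comparison asked how the 4 mRNAs differed between the low-glucose medium with arginine and 2% glucose medium. In the WT strain, the genes of the route from arginine to glutamate rose, by 3.29-fold for *aga*, 5.04-fold for *ota* and 6.86-fold for NCU03076 in mean RPKM. *spe-1*, which draws on the same ornithine, fell and was 2.91-fold lower. All 4 genes passed the threshold, against a background of 59.3% of the 9013 genes tested. As deposited, 45% of all genes were called higher and 14.3% lower, and after scaling 26.3% and 26.8%, and the direction of the 4 genes was the same on both scales.

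*aga* was at 83.1, 80.6 and 83.3 RPKM in the WT libraries in 2% glucose medium and at 273 and 269 RPKM in those in 0.1% glucose medium. The log2 difference was 1.71 (standard error 0.07, adjusted *P* = 3.8e-09 by limma) and 1.13 scaled. The groups lay far apart in relation to their spread. *ota* rose from 44.8, 45.3 and 47.6 RPKM to 227 and 236 RPKM, a log2 difference of 2.31 (standard error 0.08, adjusted *P* = 1.3e-09 by limma) and of 1.74 scaled. NCU03076 rose most of the 4, from 36.6, 33.4 and 35.9 RPKM to 244 and 241 RPKM, with a log2 difference of 2.75 (standard error 0.08, adjusted *P* = 2.9e-10 by limma) and of 2.17 scaled. After scaling, the means of *aga*, *ota* and NCU03076 were 2.20-fold, 3.37-fold and 4.59-fold higher in that medium. Among the 4203 genes with a mean above 10 RPKM, NCU03076 was at rank 132 from the top by the deposited log2 difference, which is the one used for all ranks here, *ota* at rank 197 and *aga* at rank 414.

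*spe-1* was at 74.0, 65.6 and 72.5 RPKM in 2% glucose medium and at 23.0 and 25.7 RPKM in 0.1% glucose medium. The log2 difference was −1.501 (standard error 0.08, adjusted *P* = 2.6e-08 by limma) and −2.06 scaled, and the gene was at rank 226 from the bottom of the same 4203. No other group had *spe-1* levels as low as these libraries.

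In *cpc-1Δ*, the same 3 genes of the route rose in 0.1% glucose medium and *spe-1* did not pass the test. The 3 increases compare with 28.2% of all genes called in either direction, 13.3% higher and 14.9% lower (14.4% and 13.5% scaled). Both media are represented here by groups of 2 libraries of lower relative depth, and scaling moved the 4 differences by little. *aga* rose from 110 and 99.7 RPKM to 267 and 268 RPKM, with a log2 difference of 1.35 (standard error 0.08, adjusted *P* = 3.4e-07 by limma) and of 1.37 scaled. *ota* rose from 125 and 122 RPKM to 211 and 219 RPKM, with a log2 difference of 0.79 (standard error 0.09, adjusted *P* = 7.7e-05 by limma) and of 0.81 scaled. This was the smallest of the 3, and *ota* had started from a higher level in 2% glucose medium than in the WT strain. NCU03076 rose from 48.8 and 48.1 RPKM to 168 and 173 RPKM, with a log2 difference of 1.80 (standard error 0.09, adjusted *P* = 1.1e-07 by limma) and of 1.81 scaled. It was at rank 59 of the 4203 genes, *aga* at rank 92 and *ota* at rank 230. *spe-1* was at 175 and 184 RPKM in 2% glucose medium and at 176 and 161 RPKM in 0.1% glucose medium, and the groups overlapped. Its log2 difference was −0.09, with a 95% interval from −0.28 to 0.10 (adjusted *P* = 0.48 by limma).

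The effect of the medium was then compared between the strains by an interaction term, for which 50.7% of all genes passed the threshold (9.96% higher and 40.8% lower, and 20.5% and 21.4% scaled). *spe-1* fell in WT and did not pass the test in *cpc-1Δ*, and its interaction was 1.41 on the log2 scale (standard error 0.12, adjusted *P* = 2.3e-06 by limma) and 1.99 scaled. For *ota*, the increase was smaller in *cpc-1Δ* than in WT by 1.52 as deposited (standard error 0.12, adjusted *P* = 1.8e-06 by limma) and the scaled interaction was −0.92. For NCU03076, it was −0.95 (standard error 0.12, adjusted *P* = 5.8e-05 by limma) and −0.36 scaled (adjusted *P* = 0.012 by limma). For *aga*, the direction turned with the scale, from −0.36 as deposited (adjusted *P* = 0.013 by limma) to 0.24 scaled (adjusted *P* = 0.031 by limma). Without the first library of *cpc-1Δ* in 2% glucose medium, the deposited value for *aga* was −0.29 (adjusted *P* = 0.051 by limma). No direction can therefore be given for *aga*.

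Most of the genes used here to mark conidiation differed between the media. Of the 4 fixed for this (*con-6*, *con-8*, *con-10* and *eas*), 3 were higher in WT in 0.1% than in 2% glucose medium. *con-6* was at 0 in all libraries in 2% glucose medium, at 72.2 and 57.7 RPKM in WT in 0.1% glucose medium and at 5.70 and 7.0 RPKM in *cpc-1Δ* in that medium. *con-8* was at 24.0 to 26.1 RPKM in WT in 2% glucose medium and at 229 and 237 RPKM in 0.1% glucose medium. The sum of the 4 ranged from 27.5 to 557 RPKM in WT in 2% glucose medium and was 410 RPKM in both WT libraries in 0.1% glucose medium. In *cpc-1Δ*, it ranged from 140 to 162 RPKM and from 85.9 to 86.1 RPKM in these media. *eas* was listed at 0 in 1 WT library in 2% glucose medium and at 532 and 526 RPKM in the other 2, which sets the width of the first range. In WT in 0.1% glucose medium, *eas* was at 53.3 and 56.6 RPKM, well below those 2 libraries. Its difference between the media was not called in WT (log2 difference, −0.23, and −0.71 scaled). In *cpc-1Δ*, 1 of the 4 markers was higher and 2 were lower in 0.1% glucose medium, while the 3 genes of the route rose there as well. The WT comparison also sets a group of 2 libraries against 1 of 3. The part of conidiation or of depth in the WT differences was not tested.

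**Figure D2:**
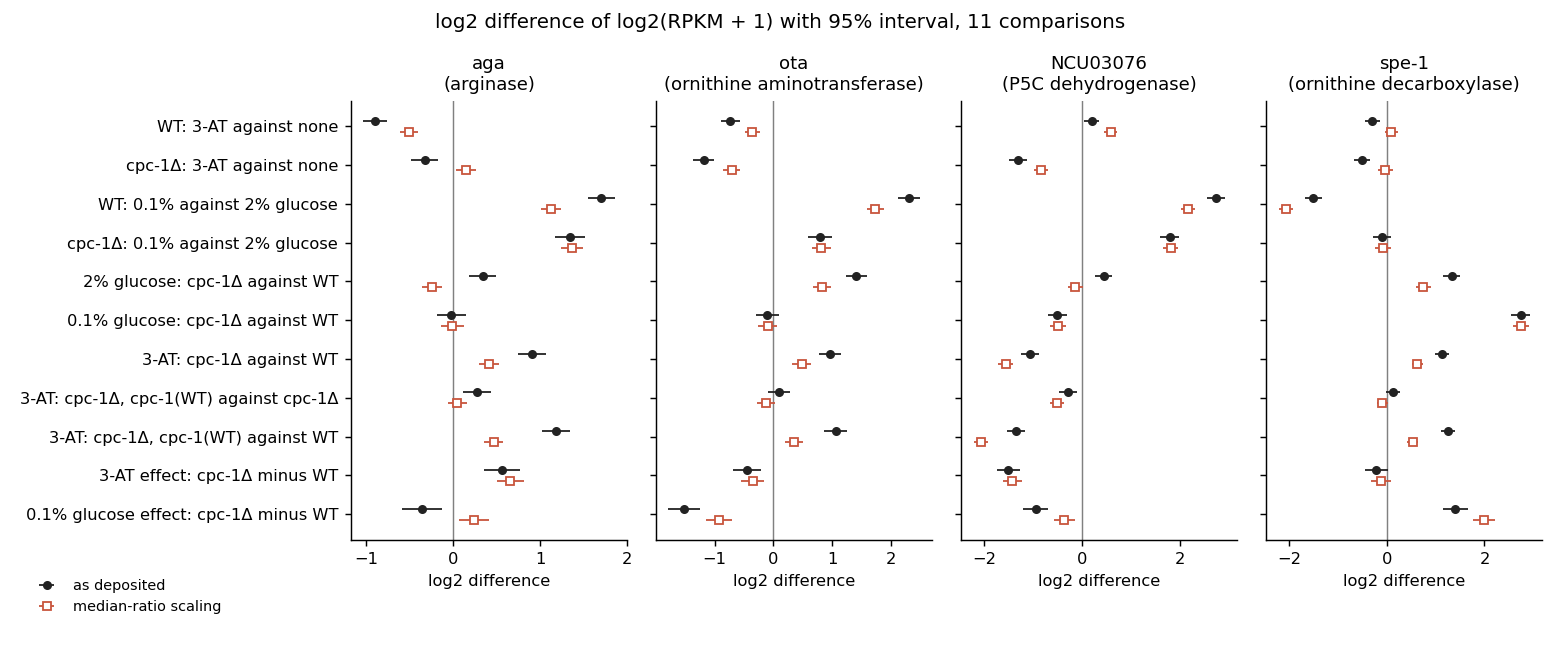
log2 differences of the 4 genes (horizontal axis) in 11 comparisons (rows), with 95% intervals, as deposited (filled circles) and after median-ratio scaling (open squares). Scaling left the large differences between the media in place and turned the sign of several smaller ones, among them *aga* in *cpc-1Δ* with 3-AT, from −0.33 to 0.15.

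The second comparison asked how the genes responded to starvation by 3-AT. In the WT strain, *aga* and *ota* fell on both scales while NCU03076 rose. Counted as deposited, 3 of the 4 genes were called lower and 1 higher, against 34.2% and 10.1% of all genes, or 44.3% in either direction. After scaling, 2 were lower and 1 higher, against 17.1% and 22.3%. *aga* was at 40.8, 44.6 and 46.1 RPKM with 3-AT, below all 3 libraries without it, and its mean was 0.532 times theirs. The log2 difference was −0.90 (standard error 0.06, adjusted *P* = 6.6e-07 by limma) and −0.51 scaled. *ota* was at 24.0, 27.5 and 30.2 RPKM, the lowest level of this gene in the 7 groups, with a log2 difference of −0.74 (standard error 0.07, adjusted *P* = 1e-05 by limma) and of −0.36 scaled. Scaling made both decreases smaller and left their direction as it was.

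NCU03076 was at 37.9, 42.9 and 41.4 RPKM with 3-AT in WT, slightly above the 33.4 to 36.6 RPKM without it. The log2 difference was 0.20 (standard error 0.07, adjusted *P* = 0.045 by limma), and it was 0.59 scaled (adjusted *P* = 1.4e-05 by limma). The call on the deposited values was lost without any 1 of the 3 libraries without 3-AT or without the second or the third with 3-AT, with log2 differences of 0.16 to 0.25 over the 6 omissions (adjusted *P* of 0.024 to 0.15 by limma). *spe-1* was at 53.6, 57.5 and 61.3 RPKM with 3-AT. Its log2 difference of −0.30 as deposited (adjusted *P* = 0.005 by limma) turned to 0.09 scaled (adjusted *P* = 0.26 by limma), so that no direction can be given.

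In *cpc-1Δ*, all 4 genes were called lower with 3-AT as deposited, against 43.8% of all genes called lower and 4.28% higher (48.1% in all). After scaling, 2 of them were called lower, against 16.1% of all genes lower and 14.7% higher. The 2 were *ota* and NCU03076, the consecutive steps from ornithine to glutamate. *ota* fell from 125 and 122 RPKM to 55.5, 54.5 and 51.6 RPKM, with a log2 difference of −1.19 (standard error 0.08, adjusted *P* = 7.8e-07 by limma) and of −0.71 scaled. NCU03076 fell from 48.8 and 48.1 RPKM to 17.8, 21.2 and 18.04 RPKM, with a log2 difference of −1.31 (standard error 0.08, adjusted *P* = 3.5e-07 by limma) and of −0.84 scaled. It stood at rank 240 from the bottom of 4203 genes. *aga* was at 81.4, 89.0 and 79.0 RPKM, and its log2 difference of −0.33 turned to 0.15 when scaled (adjusted *P* = 0.055 by limma). *spe-1* was at 126, 128 and 124 RPKM, and its log2 difference was −0.51 as deposited and −0.03 scaled (adjusted *P* = 0.83 by limma).

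The response to 3-AT differed between the strains for 3 of the 4 genes, against 35.1% of all genes (12.2% higher and 22.8% lower, and 15.3% and 20.1% scaled), and on both scales. NCU03076 differed most. It rose slightly in WT and fell in *cpc-1Δ*, and the interaction was −1.51 on the log2 scale (standard error 0.11, adjusted *P* = 1.7e-06 by limma) and −1.43 scaled, at rank 235 from the bottom of 4203 genes. The interaction was −0.45 for *ota* (standard error 0.11, adjusted *P* = 0.0088 by limma) and −0.35 scaled, which is a larger decrease in *cpc-1Δ*. It had the opposite sign for *aga*, at 0.57 (standard error 0.09, adjusted *P* = 0.00075 by limma) and 0.66 scaled. For *spe-1*, it was −0.21 with a 95% interval from −0.44 to 0.02 (adjusted *P* = 0.15 by limma). Among the conidiation markers, the sum was 2295 to 2342 RPKM in WT with 3-AT, nearly all of it *eas*, and 37.6 to 103 RPKM in *cpc-1Δ* with 3-AT. The other markers did not follow this sum. For *cpc-1Δ* against WT with 3-AT, *con-10* was called higher on both scales (log2 difference, 1.59, and 1.19 scaled). *con-8* turned with the scale, from 0.36 (called higher) to −0.12 (not called), and *con-6* was at 0 in both strains. The markers' part in the differences of the 4 genes was not tested.

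The strains were also compared within each culture, with the same libraries as above, so that these values are not independent of the ones given. Without 3-AT in 2% glucose medium, all 4 genes as deposited were called higher in *cpc-1Δ* than in WT, against 47.1% of all genes called higher and 7.37% lower (54.5% in all), a split that was 19.9% and 20.4% after scaling. The mRNAs of *ota* and *spe-1*, whose enzymes compete for ornithine, were higher on both scales. *ota* was 2.70-fold higher in *cpc-1Δ*, with a log2 difference of 1.41 (standard error 0.08, adjusted *P* = 1.4e-07 by limma) and of 0.83 scaled. *spe-1* was 2.54-fold higher, with a log2 difference of 1.33 (standard error 0.08, adjusted *P* = 1.5e-07 by limma) and of 0.75 scaled. The other 2 turned with the scale, *aga* from 0.34 to −0.24 and NCU03076 from 0.45 to −0.13. Of the 4 conidiation markers, 2 were called different between the same libraries. *con-8* was at 24.0, 26.1 and 24.9 RPKM in WT and at 104 and 111 RPKM in *cpc-1Δ* (log2 difference, 2.06, and 1.48 scaled), and *con-10* was at 1.30, 1.53 and 2.64 RPKM and at 16.9 and 32.2 RPKM (log2 difference, 3.14, and 2.67 scaled). Both were called higher on both scales. *con-6* was at 0 in all libraries of both groups. *eas* was at 532 and 526 RPKM and at a listed 0 in WT, and at 19.0 and 18.7 RPKM in *cpc-1Δ*. Its difference was not called (log2 difference, −1.72, and −2.20 scaled). The markers' part in the differences of *ota* and *spe-1* was not tested.

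In 0.1% glucose medium, where the median shift was close to 0 and both groups held 2 libraries, the strains differed most in *spe-1*. *spe-1* was at 23.0 and 25.7 RPKM in WT and at 176 and 161 RPKM in *cpc-1Δ*, which is 6.92-fold higher. The log2 difference was 2.74 (standard error 0.09, adjusted *P* = 8.3e-10 by limma) on either scale, at rank 96 of 4203 genes. It was the 1 member called higher, and NCU03076 the 1 called lower, in a comparison in which 49.2% of all genes were called, 22.3% higher and 26.9% lower (22.3% and 25.9% scaled). NCU03076 was at 168 and 173 RPKM in *cpc-1Δ* against 244 and 241 RPKM in WT, with a log2 difference of −0.50 (standard error 0.09, adjusted *P* = 0.0006 by limma) and of −0.49 scaled. For *aga*, the log2 difference was −0.02, with a 95% interval from −0.19 to 0.15 (adjusted *P* = 0.91 by limma). For *ota*, it was −0.11, with a 95% interval from −0.30 to 0.09 (adjusted *P* = 0.37 by limma). The conidiation markers also differed here, with 3 of 4 lower in *cpc-1Δ*, and their part was not tested.

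With 3-AT, *aga*, *ota* and *spe-1* exceeded their WT levels in *cpc-1Δ*, and NCU03076 was lower there. Of all 8688 genes, 60.9% were called, 45.5% higher and 15.5% lower (26% and 27.9% scaled). The directions were the same on both scales. *aga* was 1.90-fold higher, with a log2 difference of 0.91 (adjusted *P* = 1.1e-05 by limma) and of 0.41 scaled. *ota* was 1.98-fold higher, with a log2 difference of 0.96 (adjusted *P* = 2.4e-05 by limma) and of 0.48 scaled. *spe-1* was 2.19-fold higher, with a log2 difference of 1.12 (adjusted *P* = 2e-06 by limma) and of 0.63 scaled. No library of either strain overlapped with the other in any of the 4 genes, and the share of all genes without overlap was not counted. NCU03076 stood at 17.8 to 21.2 RPKM in *cpc-1Δ* against 37.9 to 42.9 RPKM in WT, with a log2 difference of −1.06 (standard error 0.08, adjusted *P* = 1.2e-05 by limma) and of −1.56 scaled.

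The transgene strain addressed whether the tagged *cpc-1*, at the level reached there, brings the levels back toward those of WT under starvation. The mean of *cpc-1* was 71.6 RPKM in this strain and 1141 RPKM in WT with 3-AT. The effect of *cpc-1* restored to its WT level was therefore not tested. As deposited, in none of the 4 genes did its level lie between those of *cpc-1Δ* and WT. The share of all genes with a level between them was not counted. The deposited values of this strain were shifted up by a median of 0.25 against *cpc-1Δ* and of 0.73 against WT. Scaled, the mean of *ota* was 56.5 RPKM, between 61.7 in *cpc-1Δ* and 44.1 in WT, and that of *spe-1* was 135.5 RPKM, between 144 and 93.2, and both lay closer to *cpc-1Δ*. *aga* was at 97.7, 103 and 102 RPKM, *ota* at 56.8, 59.3 and 56.9 RPKM and *spe-1* at 135, 145 and 136 RPKM, all listed above *cpc-1Δ*, which was itself above WT. NCU03076 was at 14.9, 15.2 and 15.7 RPKM, the lowest values of the gene in any group. Against *cpc-1Δ*, 1 of the 4 genes was called higher and 1 lower, against 29.4% and 4.51% of all genes, or 33.9% in all (16.3% and 12.6% scaled).

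*aga* was called higher by 0.27 on the log2 scale (adjusted *P* = 0.017 by limma), which was 0.05 scaled (adjusted *P* = 0.51 by limma). The call on the deposited values was lost without the first or the third library of *cpc-1Δ* or the third of the transgene strain, with log2 differences of 0.24 to 0.32 over all omissions (adjusted *P* of 0.013 to 0.059 by limma). NCU03076 was lower, with a log2 difference of −0.29 (adjusted *P* = 0.025 by limma) and of −0.51 scaled (adjusted *P* = 0.0009 by limma). On the deposited values, this call was lost without the second library of *cpc-1Δ* or any 1 of the 3 of the transgene strain, with log2 differences of −0.34 to −0.22 over all omissions (adjusted *P* of 0.034 to 0.075 by limma). The difference was 0.10 for *ota* (95% interval, −0.10 to 0.29; adjusted *P* = 0.43 by limma) and −0.13 scaled. It was 0.13 for *spe-1* (95% interval, −0.01 to 0.28; adjusted *P* = 0.14 by limma) and −0.09 scaled, so that no direction can be given for either.

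Against WT, all 4 genes differed in the transgene strain on both scales, 3 higher and 1 lower, against 54.3% and 8.47% of all genes, or 62.8% in all (23.7% and 26.2% scaled). *aga* was 2.30-fold higher, with a log2 difference of 1.18 (adjusted *P* = 2.5e-06 by limma) and of 0.47 scaled. *ota* was 2.12-fold higher, with a log2 difference of 1.06 (adjusted *P* = 1.3e-05 by limma) and of 0.35 scaled. *spe-1* was 2.41-fold higher, with a log2 difference of 1.26 (adjusted *P* = 1.1e-06 by limma) and of 0.54 scaled. These 3 differences were smaller when the libraries were scaled. That of NCU03076 grew, from −1.35 (standard error 0.08, adjusted *P* = 2.9e-06 by limma) to −2.07, and as deposited it stood at rank 69 from the bottom of 4062 genes. The comparisons against *cpc-1Δ* and against WT share the libraries of the transgene strain. The conidiation markers added up to 757 to 797 RPKM in this strain, between the sums in *cpc-1Δ* and WT with 3-AT. Most of each sum in the transgene strain and WT was *eas*. *con-8* was instead higher in the transgene strain, at a mean of 65.0 RPKM, than in *cpc-1Δ* (23.2 RPKM) and in WT (17.9 RPKM), and was called higher against both on both scales. *con-10* differed from both of these markers. Against *cpc-1Δ*, it was called lower on both scales (log2 difference, −0.71, and −0.92 scaled). Against WT, it was called higher as deposited (log2 difference, 0.88) but not when scaled (0.27). The markers' part was not tested.

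Over the 7 groups, the ratio of the highest to the lowest mean as deposited was 15.8 for NCU03076, 8.50 for *ota*, 7.38 for *spe-1* and 6.18 for *aga*. For *aga*, *ota* and NCU03076, WT in 0.1% glucose medium came first and *cpc-1Δ* in 0.1% glucose medium second, as deposited and scaled. *cpc-1Δ* in 2% glucose medium came next as deposited, and after scaling it kept that place for *ota* but fell to the place before the last for *aga* and behind both other WT groups for NCU03076. *aga* and *ota* were lowest in WT with 3-AT on both scales. NCU03076 was lowest in the transgene strain and next lowest in *cpc-1Δ* with 3-AT, also on both scales. The 3 genes of the route thus had the same first and second groups. They parted in the groups with 3-AT and, after scaling, also in *cpc-1Δ* in 2% glucose medium. *spe-1* was ordered by strain. Its 4 highest groups were the 4 without the native *cpc-1*, at 124 to 184 RPKM, and its 3 lowest were the WT groups, at 23.0 to 74.0 RPKM. Scaled, the means of the 4 lay between 135.5 and 147 RPKM, and those of the WT groups were 93.2, 87.3 and 20.1 RPKM. Neighbors in the deposited order of *aga* whose libraries overlapped were *cpc-1Δ* in 2% glucose medium and the transgene strain, as were *cpc-1Δ* with 3-AT and WT without it. For *spe-1*, they were *cpc-1Δ* in 2% and in 0.1% glucose medium, and no neighbors overlapped for *ota* and NCU03076. By mean RPKM over the 18 libraries, *aga* was at 123, *spe-1* at 107, *ota* at 94.1 and NCU03076 at 69.7, which put them at ranks 527, 622, 710 and 974 of 9730 genes.

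Ratios of genes within a library do not depend on how libraries are scaled, and some were taken as a description after the levels had been seen. The ratio of *spe-1* to *ota* sets the mRNA of the decarboxylase against that of the aminotransferase, the enzymes that use the same ornithine. It was 1.45 to 1.65 in WT and 1.40 to 1.501 in *cpc-1Δ* in 2% glucose medium, which is nearly the same range although both mRNAs were higher in *cpc-1Δ*. With 3-AT it was 2.03 to 2.23 in WT, 2.28 to 2.41 in *cpc-1Δ* and 2.37 to 2.44 in the transgene strain. In 0.1% glucose medium it was 0.101 and 0.109 in WT and 0.834 and 0.735 in *cpc-1Δ*, so that *ota* exceeded *spe-1* in both strains and by far more in WT.

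The ratio of NCU03076 to *ota* sets the step after pyrroline-5-carboxylate against the step before it. In WT it was 0.738 to 0.819 in 2% glucose medium, 1.37 to 1.58 with 3-AT and 1.02 to 1.07 in 0.1% glucose medium. In *cpc-1Δ* it was 0.391 and 0.392, 0.321 to 0.389 and 0.792 to 0.797 in the same cultures, below WT in each. In the transgene strain it was 0.257 to 0.277, the lowest of the 7 groups. *arg-12* encodes ornithine carbamoyltransferase, which uses ornithine in the opposite sense, to make arginine. The ratio of *arg-12* to *ota* was 9.93 to 11.7 in WT with 3-AT, 2.65 to 2.78 in WT without it and 0.194 to 0.230 in WT in 0.1% glucose medium. With 3-AT it was 0.461 to 0.606 in *cpc-1Δ* and 1.82 to 2.13 in the transgene strain. In the transgene strain, this ratio lay between those of *cpc-1Δ* and WT.

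**Figure D3:**
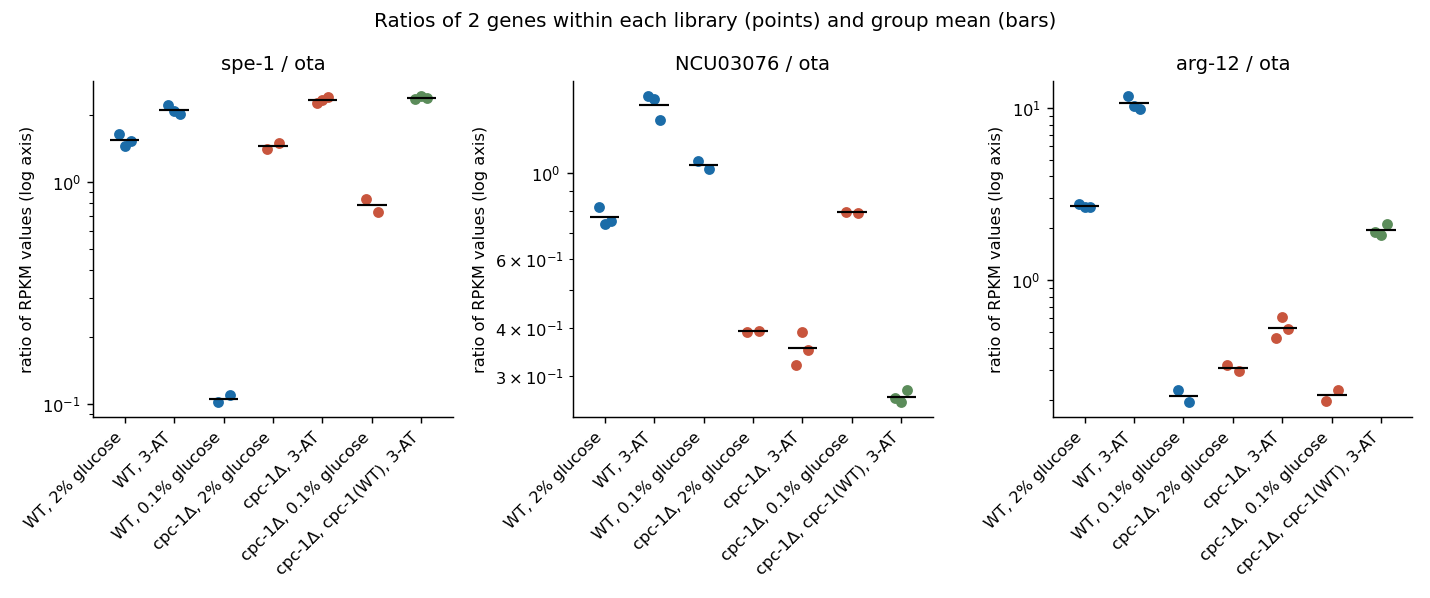
Ratios of the RPKM values of 2 genes within each library (points, log axis) in the 7 groups, with the group mean as a bar: *spe-1* to *ota*, NCU03076 to *ota* and *arg-12* to *ota*. The ratio of *spe-1* to *ota* was 0.101 and 0.109 in WT in 0.1% glucose medium, and that of *arg-12* to *ota* was 9.93 to 11.7 in WT with 3-AT.

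A list of 8 other genes around ornithine was matched by symbol. It held *arg-12*, *arg-13* (the mitochondrial ornithine carrier), *pmb* (a permease of basic amino acids), the proline synthesis genes *pro-1*, *pro-3* and *pro-4*, and *spe-2* and *spe-3*, which act after ornithine decarboxylase in polyamine synthesis. Genes of urea use were on the list but were not matched by symbol and are not analysed here. In WT in 0.1% glucose medium, 0 of the 8 were higher and 6 were lower than in 2% glucose medium, against 45% and 14.3% of all genes (0 and 7 after scaling, against 26.3% and 26.8%), with a median log2 difference of −1.06 against 0.40 over all genes. In *cpc-1Δ*, 1 was higher and 1 lower, against 13.3% and 14.9% of all genes, with a median of 0.22 against 0 over all genes. Between the strains in 0.1% glucose medium, 5 of 8 were higher in *cpc-1Δ* and 0 lower, against 22.3% and 26.9% of all genes, with a median of 1.68 against −0.02 over all genes.

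*spe-3*, the spermidine synthase gene, was at 133 to 137 RPKM in WT in 2% glucose medium, at 79.1 and 81.8 RPKM in WT in 0.1% glucose medium and at 239 and 240 RPKM in *cpc-1Δ* in that medium. It thus differed in the same direction as *spe-1* in 0.1% glucose medium, with a log2 difference between the strains of 1.56 (standard error 0.07, adjusted *P* = 8.2e-09 by limma). *pro-4*, the glutamate kinase gene of proline synthesis, was at 15.8 and 19.3 RPKM in WT and at 63.4 and 62.2 RPKM in *cpc-1Δ* in 0.1% glucose medium (log2 difference, 1.79; adjusted *P* = 1e-07 by limma). *pmb* was at 19.6 and 17.2 RPKM in WT and at 71.7 and 65.1 RPKM in *cpc-1Δ* (log2 difference, 1.84; adjusted *P* = 1.8e-08 by limma). The largest log2 difference of the list there, 3.84 for *spe-2*, which encodes S-adenosylmethionine decarboxylase, rests on 9.12 RPKM and a listed value of 0 in WT against 46.9 and 42.1 RPKM in *cpc-1Δ*. *arg-13* was listed at 0 in both WT libraries in 0.1% glucose medium and at 7.99 and 7.18 RPKM in *cpc-1Δ*, and isolated values of 0 were not read as absence of an mRNA.

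*arg-12* rose in WT with 3-AT from 124, 121 and 126 RPKM to 281, 284 and 299.7 RPKM, with a log2 difference of 1.21 (standard error 0.10, adjusted *P* = 3e-06 by limma). In *cpc-1Δ* it was at 39.7 and 35.9 RPKM without and at 25.6, 33.0 and 26.6 RPKM with 3-AT. That log2 difference of −0.41 (adjusted *P* = 0.013 by limma) turned to 0.06 scaled (adjusted *P* = 0.73 by limma). In the transgene strain, *arg-12* was at 109, 108 and 121 RPKM with 3-AT. It was thus higher in the transgene strain than in *cpc-1Δ*, by a log2 difference of 1.96 (standard error 0.10, adjusted *P* = 4.8e-06 by limma). As a whole, the list had 2 genes higher and 2 lower in WT with 3-AT, against 10.1% and 34.2% of all genes, with a median log2 difference of 0.11 against −0.17 over all genes. In *cpc-1Δ* with 3-AT, 0 were higher and 5 lower, against 4.28% and 43.8% of all genes, and after scaling 1 was higher and 2 were lower, against 14.7% and 16.1%. Between *cpc-1Δ* and WT without 3-AT, 2 of 8 were higher and 1 lower, against 47.1% and 7.37% of all genes (1 and 3 after scaling, against 19.9% and 20.4%). With 3-AT, 3 were higher and 4 lower, against 45.5% and 15.5% (2 and 4 after scaling, against 26% and 27.9%). Relative to *cpc-1Δ*, the transgene strain had 3 higher and 0 lower, where 29.4% and 4.51% of all genes were called (2 and 1 after scaling, where 16.3% and 12.6% were). Relative to WT, it had 3 higher and 3 lower, where 54.3% and 8.47% were called (2 and 4 after scaling, where 23.7% and 26.2% were). The interaction of 3-AT with the strain was positive for 1 gene of the 8 and negative for 4, against 12.2% and 22.8% of all genes. That of the medium was positive for 5 and negative for 0, against 9.96% and 40.8% (7 and 0 after scaling, against 20.5% and 21.4%). With 8 genes, these counts are a description and were not tested against the shares of all genes.

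**Figure D4:**
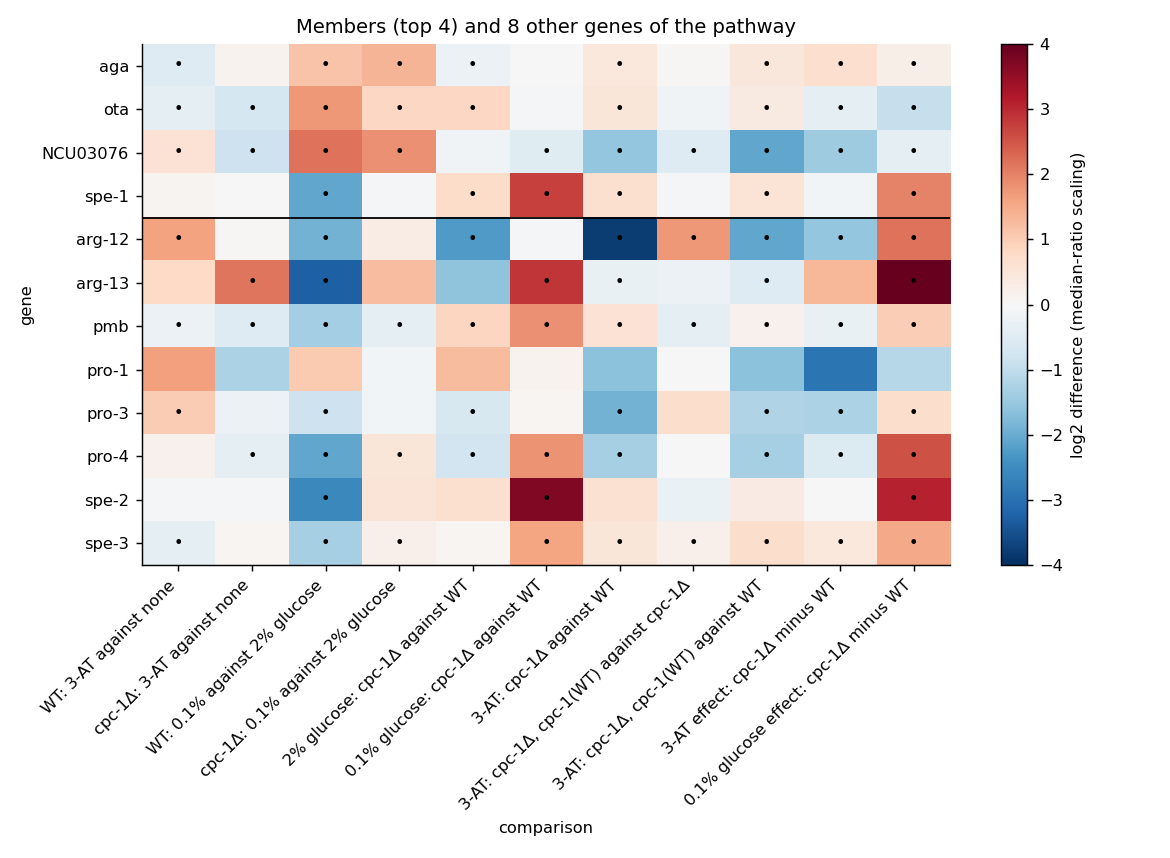
Scaled log2 differences (color, from −4 in blue to 4 in red) of the 4 genes (upper rows) and the 8 other genes (lower rows) in 11 comparisons (columns), with a dot where limma's adjusted *P* was under 0.05. In WT in 0.1% against 2% glucose medium, *aga*, *ota* and NCU03076 were higher and *spe-1* and 7 of the 8 others lower.

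The genes whose pattern was most like that of each member were taken by Pearson's *r* of scaled log2 values over the 18 libraries. This was done among 4593 genes whose arithmetic mean of the deposited values reached 10 RPKM. The libraries fall into 7 groups and the points within a group are not independent, so that *r* is a description. *aga* was most like *hgt-1* (NCU10021, *r* = 0.97), which encodes a high-affinity glucose transporter and had a mean of 1499 RPKM in WT in 0.1% glucose medium and of 5.12 RPKM in 2% glucose medium. NCU01064 and NCU04904 followed with *r* = 0.95 each. *ota* was most like NCU02887 and NCU07319 (*r* = 0.98 each) and *nuo51* (NCU04044, *r* = 0.97), which encodes a subunit of respiratory complex I. NCU03076 was most like NCU05627 (*r* = 0.97), *tca-15* (NCU04899, *r* = 0.96) and NCU06536 (*r* = 0.96). For *spe-1*, 3 genes reached *r* = 0.99. They were NCU06943, NCU06485 and NCU07922, and the last of them had a mean of 47.2 RPKM in WT in 0.1% glucose medium and of 567 RPKM in *cpc-1Δ* there. Among the members, *aga* and *ota* were alike, with *r* = 0.90. NCU03076 was less like either, with *r* = 0.67 to *aga* and 0.70 to *ota*. *spe-1* was negatively correlated with the other 3, with *r* = −0.50 to *aga*, −0.43 to *ota* and −0.66 to NCU03076.

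*aga* has 2 transcripts in the annotation used for the files, NCU02333T0 and NCU02333T1, and the sum over both was used above. NCU02333T0 was at 35.9 to 191 RPKM. NCU02333T1 was listed above 0 in 11 of 18 libraries and at 0 in 7, and its highest value was 133 RPKM. Its share of the sum was 42.2% and 49.3% in WT and 41.3% and 28.8% in *cpc-1Δ* in 0.1% glucose medium. It was 0%, 26.0% and 23.3% in WT and 14.96% and 47.9% in *cpc-1Δ* in 2% glucose medium, so that libraries of 1 group disagreed. With 3-AT it was 11.9%, 0% and 16.8% in WT, 0% in all 3 libraries of *cpc-1Δ* and 0%, 0% and 12.8% in the transgene strain. The summed level differed far less between the libraries of a group than the split did, and an exact 0 for a transcript can be an estimate that failed. *ota* has NCU00194T0 listed at 0 in all 18 libraries, and its whole value came from its other transcript.

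**Figure D5:**
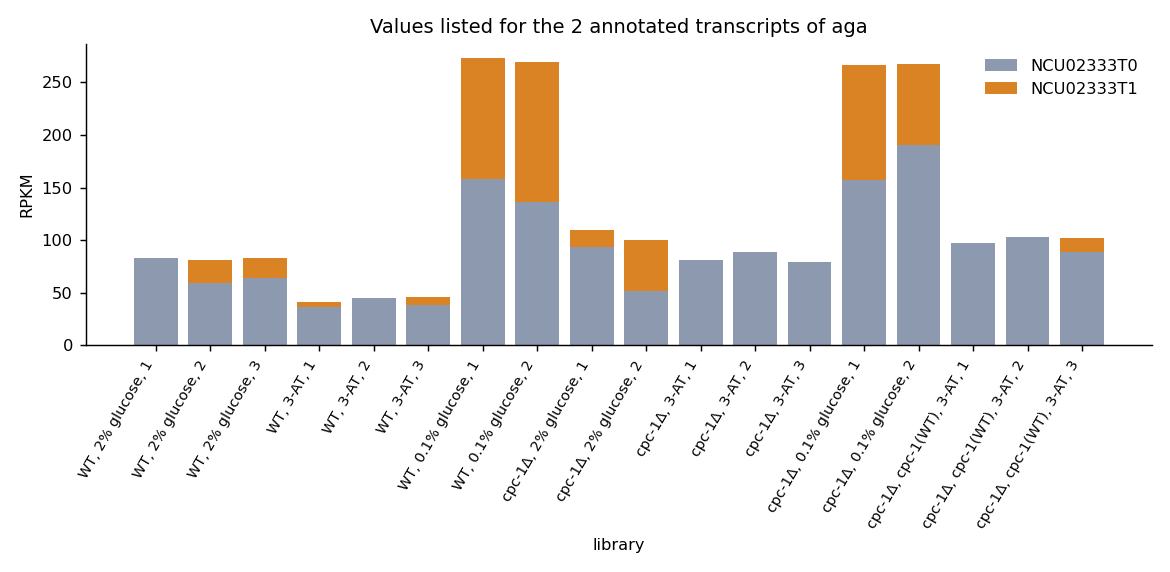
RPKM listed for the 2 transcripts of *aga*, stacked, in each of the 18 libraries. The height of the whole bar agrees between libraries of a group, while NCU02333T1 (upper part) is at 0 in 7 libraries and reaches 49.3% of the sum in 1 library in 0.1% glucose medium.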

How the data were processed

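For each of 18 libraries, the deposited files list an RPKM value per annotated transcript, as computed by the authors, for 10785 transcripts. The submitters' processing notes name TopHat2 and Cufflinks. The genome build and the total of reads behind the RPKM values are not given in the sources used here, and no coordinates are printed. Methods and labels name different library kits, and the methods name more than 1 sequencer, without assigning libraries to them. Transcripts were summed per gene (9730 genes, of which 9729 matched the NC12 table), and the 50 to 61 transcripts with no number in a library of the transgene strain took 124 genes out of comparisons with that strain. Their columns are headed GCN4WT, and the label, which names *cpc-1*(WT), was followed.

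Groups came from the titles. Replicates are numbered in the labels but are not stated to be separate cultures, so that *P* values measure the spread between these libraries. log2(RPKM + 1) was fitted with limma 3.58.1 in R 4.3.3, with a coefficient for each group, on 9 libraries (8688 genes) for strains with 3-AT and on 15 libraries (9013 genes) otherwise. Tests were two-sided, and *P* values were adjusted over all genes tested (Benjamini-Hochberg). Genes at 0 in every library of a fit were left out, and no other filter was applied. The procedure was tested on simulated data. These held no shift shared by most genes of a library, so that the simulation does not cover the shifts seen here. Tables were made with Python 3.11.15, pandas 2.3.3 and NumPy 2.4.6. Same-numbered libraries did not deviate together (*r* of deviations, −0.114 to 0.098 over 48 pairs), so the main design has no block. Alternatives were a pseudocount of 0.1, median-ratio scaling, a filter of 1 RPKM, all 18 libraries in 1 fit, the replicate number as a block and leaving out each library in turn.

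The members and lists were chosen with earlier results of these data known. Named besides the 4 members are *cpc-1*, the genes of the list by largest difference (at most 4 per role), the conidiation markers and, for each member, the 3 genes of highest *r*. Neither read counts nor sequences were used here.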

Additional observations from a re-analysis of the deposited data

Results flagged for a closer look

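For 7 of the 8 tests of a difference between the strains, the effect of the culture in *cpc-1Δ* differed from that in WT by the interaction term of limma (adjusted *P* under 0.05). Of all genes, 35.1% differed in this way for 3-AT and 50.7% for the medium. The 3-AT effect differed for *aga* by 0.57, for *ota* by −0.45 and for NCU03076 by −1.51 on the log2 scale, each value being *cpc-1Δ* minus WT. The effect of 0.1% glucose medium with arginine differed for *aga* by −0.36, for *ota* by −1.52, for NCU03076 by −0.95 and for *spe-1* by 1.41. After scaling, the value for *aga* in 0.1% glucose medium was 0.24, and the other 6 had the same sign. No group of 4 or more libraries exists in which a single library could be set against the rest.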

How the results depend on the processing

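Of the 44 log2 differences of the 4 genes, all kept direction and side of the threshold in a fit of all 18 libraries and with a filter of 1 RPKM. Median-ratio scaling turned 7 of them: *spe-1* in WT with 3-AT (0.094), *aga* in *cpc-1Δ* with 3-AT (0.15), *aga* (−0.24) and NCU03076 (−0.13) for the strains in 2% glucose medium, *ota* (−0.13) and *spe-1* (−0.092) in the transgene strain against *cpc-1Δ*, and the *aga* interaction in 0.1% glucose medium (0.24). Of these 7, the first, the second and that of NCU03076 also lost their call (adjusted *P* = 0.26, 0.055 and 0.14 by limma), and 2 other calls ended without a turn, *spe-1* in *cpc-1Δ* with 3-AT (−0.027) and *aga* in the transgene strain against *cpc-1Δ* (0.051). Scaling moved the number of genes called in *cpc-1Δ* with 3-AT from 4335 to 2779. The cause was not tested. NCU03076 in WT with 3-AT lost its call with a pseudocount of 0.1 (0.20, adjusted *P* = 0.055 by limma) and with the replicate number as a block (0.20, adjusted *P* = 0.07 by limma), and the block changed no other call among the 44. Leaving out 1 library at a time ended calls for NCU03076 in WT with 3-AT (0.16 to 0.25), for *aga* (0.24 to 0.32) and NCU03076 (−0.34 to −0.22) in the transgene strain against *cpc-1Δ*, and for the *aga* interaction in 0.1% glucose medium (−0.43 to −0.29), 13 of 268 values in all. Where this left 1 library in a group, that library was assumed to vary like the other groups. The number of genes called stayed within 1.5 times its value in the other settings. Except in the transgene strain, mean levels moved with scaling by more than their spread, and the first listed transcript of *aga* alone gave 0 to 124 RPKM, since it is NCU02333T1. A pseudocount could not be applied to mean RPKM and was not run there. Depth is known only in relation to other libraries, so that no counting error or limit of detection can be given, and groups of 2 or 3 libraries limit the precision.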
